A study of Mus musculus with 17 samples.

Results

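Cells with forced expression of the microRNA miR-203 (knock-in, KI) were compared with wild-type (WT) cells on days 6 and 7 of reprogramming toward pluripotency. A gene belonged to the comparison when its FPKM reached 5 in 1 or more of the 4 libraries and the difference between KI and WT had the same direction on both days. Of 38734 genes in the table, 10041 reached that level, and 7703 of them had the same direction on both days, 2228 higher and 5475 lower in KI. The other 2338 had opposite directions or a difference of 0 on 1 day. At the edge of the level requirement, Narg2 was just inside with a highest FPKM of 5.00105, and Clec4a3 was just outside with 4.99962.

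The study followed mouse embryonic fibroblasts (MEF) through doxycycline-driven reprogramming in 17 polyadenylated-RNA libraries, 1 for each genotype and stage. The question was how the level of miR-203 alters the transcriptome on this route. WT cells carried the OSKM cassette (Oct4, Sox2, Klf4 and cMyc), with miR-203 WT as the genotype. KI cells were ColA1_miR203; Rosa26rtTA; OSKM, and knockout (KO) cells, given here only for reference, were miR-203 KO; OSKM. By the labels, doxycycline at 1 ug/ml was meant to switch on the cassette in all genotypes and miR-203 in KI. The late KI levels of Pou5f1 and Sox2, given below, were low, and induction of the cassette was not tested. The labels give 2 weeks of doxycycline for all 17 libraries, MEF included, so they do not tell how long each library had been exposed. The Rosa26rtTA allele, which expresses the doxycycline-dependent transactivator, is named in the labels of KI cells only. No genotype and day had a second library, and nothing in the labels tells whether days 6 and 7 came from 1 culture. Differences are given as KI minus WT in log2 of FPKM + 1, a scale that understates changes of weakly expressed genes. A gene that rose or fell was higher or lower in KI than in WT, which is not a change over time.

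In reprogramming, fibroblasts lose contractile and mesenchymal gene expression, proliferate, turn on epithelial genes and then activate the pluripotency network around Oct4, which is encoded by Pou5f1. MicroRNAs guide Argonaute proteins to messenger RNAs that pair with the seed, the second to the eighth base of the microRNA, and lower their stability or translation. miR-203 is abundant in skin, where it restrains the proliferation of epidermal progenitors.

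The mature strand and stretches around matches to its seed are shown because they are what the microRNA could pair with. The first line is the RefSeq sequence of the mature strand on GRCm38.p6, located at chr12:112130927-112130948 on the plus strand, with the seed in capitals. The other lines are 3′ untranslated region (UTR) sequences of GENCODE M21 on GRCm38, in the sense of the messenger RNA, with the 7-base match CATTTCA in capitals. The first 6 belong to genes described elsewhere as miR-203 targets, and the last 4 to genes that were lower in KI on both days. All 10 were chosen with their values known.
mmu-miR-203-3p: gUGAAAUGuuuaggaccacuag
Src, chr2:157470925-157470947, plus strand: gtcctgatCATTTCAacacctgg
Skp2, chr15:9113135-9113157, minus strand: gattaacaCATTTCAactctgtg
Rapgef1, chr2:29739622-29739644, plus strand: ggtcctttCATTTCAgtctttgc
Bmi1, chr2:18685854-18685876, plus strand: tagctaagCATTTCAttgtctgc
Sparc, chr11:55394588-55394610, minus strand: cctccaagCATTTCAtgaaaaag
Prkca, chr11:107938754-107938776, minus strand: tgtgaaatCATTTCAgatcaagg
Asb4, chr6:5431654-5431676, plus strand: ggaatagaCATTTCAacacactg
Ppap2b, chr4:105232304-105232326, plus strand: cgtcctttCATTTCAacatatag
Gys1, chr7:45456103-45456125, plus strand: cggtcctcCATTTCAacccacga
Tmpo, chr10:91149307-91149329, minus strand: acggatctCATTTCAatattttg

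The host hairpin Mir203 separated the genotypes. Mir203 was listed at 0 in both WT libraries, and at an FPKM of 5863 on day 6 and 5470 on day 7 in KI. In the early KI libraries it was at 569 in MEF and 185 at day 0. A hairpin of 76 bases in a polyadenylated-RNA library does not measure the mature microRNA. The fibroblast genes Col1a1 and Vim, which encode a collagen chain and vimentin, were abundant in all 4 libraries. Col1a1 had an FPKM of 6823 and 5243 in WT and 7323 and 6781 in KI on days 6 and 7. Vim stood at 863 and 857 in WT and at 867 and 795 in KI. The sums of FPKM were 544692 and 563671 in WT and 521681 and 510501 in KI.

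The Oct4 gene had the largest decrease among annotated protein-coding genes called by limma. Pou5f1 (ENSMUSG00000024406, GRCm38 chromosome 17, 35506018 to 35510772) had an FPKM of 37.4 and 85.3 in WT on days 6 and 7 and of 0.491 and 0.675 in KI. The difference was -5.19 ± 0.29 (log2, SE; limma adjusted p = 0.0393), and KO stood at 852 and 954. Pou5f1 had passed the filter through WT only, which fixes its direction, and the 1 added to the FPKM limits the size. In the early KI libraries Pou5f1 was at 0.0387 in MEF and 0.960 at day 0, so the late KI values lay between their own early ones. Sox2, the DNA-binding partner of Oct4, stayed under the FPKM filter in WT at 2.26 and 3.63 and in KI at 0.05 and 0.0791, and was not tested. Myc, which drives growth and the cell cycle, was at 15.8 and 19.3 in WT and 6.63 and 4.38 in KI (-1.53 ± 0.23, limma adjusted p = 0.071). Klf4 was at 31.5 and 34.7 in WT and 25.7 and 26.3 in KI (-0.33 ± 0.08, adjusted p = 0.106). The libraries labelled with the cassette therefore held little Pou5f1 and Sox2 RNA in KI, and transgene and endogenous RNA are not separated in the table. The part of these levels in the differences that follow was not tested.

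Pluripotency genes that Oct4 works with were mostly under the filter in both genotypes. Only 7 of 38 listed genes reached it, 4 of them through WT only and 1 through KI only, which fixes their direction on at least 1 day. Of the 7, 5 were lower and 1 was higher in KI on both days. By limma 0 of the 7 were called, against 1.64% of all genes (165 of 10041), and 2 had an unadjusted p under 0.05, against 34.3% of all genes. Dppa5a, a marker of naive pluripotency, was at 2.86 and 38.5 in WT and at 0 and 0.260 in KI. L1td1, an RNA-binding protein of pluripotent cells, was at 3.20 and 6.68 in WT and at 0.0355 and 0.234 in KI. Both WT libraries exceeded both KI libraries for these genes. Below the filter, the homeobox factor Nanog was at 1.71 and 2.61 in WT and 0.393 and 0.266 in KI. Utf1, a chromatin factor of embryonic stem cells, was listed at 0 and 2.14 in WT and at 0 in both KI libraries.

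Counted by size alone, 421 of 10041 genes (4.19%) differed by at least 1 (log2) in the same direction on both days, 113 higher (1.13%) and 308 lower (3.07%) in KI. On day 6 alone 2.77% were higher and 5.16% lower by that size, and on day 7 alone 2.42% and 6.81%. Among 9103 protein-coding genes the counts were 72 higher and 260 lower, and among 457 short RNA genes 21 and 28. Of the 308 lower genes, 184 had passed the filter through WT only, and of the 113 higher genes 50 had passed through KI only. With a level of at least 5 required in each genotype, 63 were higher and 124 lower. At a difference of at least 2, 32 genes (0.319%) were higher and 77 (0.767%) lower, of which 4 and 45 were protein coding. limma called 60 genes higher (0.598%) and 105 lower (1.05%), and 156 of these 165 also differed by at least 1 on both days. The limma spread is the shift of the genotype difference between 2 days, with 1 residual degree of freedom, so its p-values and standard errors do not measure variation between cultures or embryos. The median over all genes was -0.149, and quantile normalization, which brought it to 0.007, gave 155 higher and 217 lower by size and 240 and 239 by limma.

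Differences between genotypes were larger in the median than those between days. The median absolute difference between KI and WT was 0.233 at day 6 and 0.292 at day 7. The median absolute change from day 6 to day 7 was 0.125 within WT and 0.143 within KI. Over the 9103 protein-coding genes the differences of the 2 days had a Pearson correlation of 0.725, given as a description since the genes share their libraries. Over all 10041 genes, short RNA genes with unstable values included, it was 0.254.

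**Figure D1:**
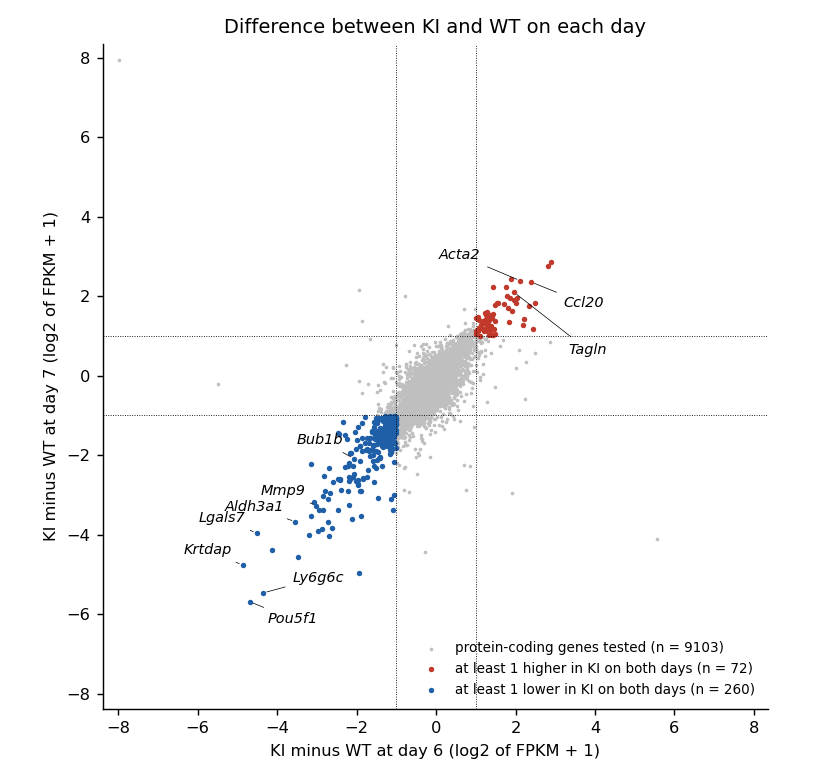
KI minus WT at day 6 (x axis) against day 7 (y axis), in log2 of FPKM + 1, for 9103 protein-coding genes (1 point per gene). Red points are the 72 genes at least 1 higher in KI on both days and blue points the 260 at least 1 lower, dotted lines mark a difference of 1, and the lower group extends much farther from 0, to Pou5f1 at -4.69 and -5.69.

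Actin-based contractile genes and matricellular genes formed the clearest group on the higher side. Of 15 tested genes of smooth muscle and the TGF-beta response, 8 were at least 1 higher in KI on both days and 0 lower. Among them limma called 5 higher. Over all genes the shares higher in KI were 1.13% by size and 0.598% by limma. Of the 15, 2 had passed the filter through KI only, which fixes their direction on at least 1 day. The list's median was 1.23, against -0.149 over all genes. Acta2, the smooth muscle actin that marks myofibroblasts, had an FPKM of 203 and 117 in WT on days 6 and 7 and of 887 and 619 in KI. Acta2 rose by 2.25 ± 0.11 (log2, SE; limma adjusted p = 0.0361). Tagln, an actin-binding protein of smooth muscle, was at 71.4 and 47.3 in WT and at 281 and 206 in KI, and rose by 2.03 ± 0.09 (limma adjusted p = 0.0337). In neither gene did the groups overlap, and both genotypes were lower at day 7 than at day 6.

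Further members had the same order of libraries. Actg2, the enteric smooth muscle actin, was at 9.05 and 6.13 in WT and at 33.0 and 32.4 in KI. Ctgf, a secreted matricellular protein downstream of TGF-beta and YAP, was at 17.9 and 20.0 in WT and at 76.1 and 74.2 in KI. Thbs1, which encodes thrombospondin and can activate latent TGF-beta, was at 523 and 430 in WT and at 1335 and 1169.9 in KI. These 3 genes rose by 1.99, 1.93 and 1.40 (limma adjusted p = 0.0464, 0.0361 and 0.0393). Myl9, a myosin light chain, had a larger difference of 2.16 with 35.8 and 44.0 in WT and 207 and 158 in KI, but missed the threshold (adjusted p = 0.0534). Smtn, a smoothelin, was the only member lower on both days, at -0.12.

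The contractile genes were not higher in KI at the start. Acta2 had an FPKM of 2829 in WT and 2810 in KI in MEF, and 3438 and 3079 at day 0. By day 4 it was at 194 in WT and 259 in KI. Expressed as late minus early, the KI minus WT difference of Acta2 grew by 2.34 ± 0.14 (limma interaction over 8 libraries, adjusted p = 0.0487), and that of Tagln by 2.33 (adjusted p = 0.0381). In that test 20 of 10041 genes (0.199%) were called, 11 with a higher (0.11%) and 9 with a lower (0.0896%) late difference. From day 4 to days 6 and 7 Acta2 went from 259 to 887 and 619 in KI, and from 194 to 203 and 117 in WT. The interaction call of either gene was lost without any 1 of the 4 stages.

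**Figure D2:**
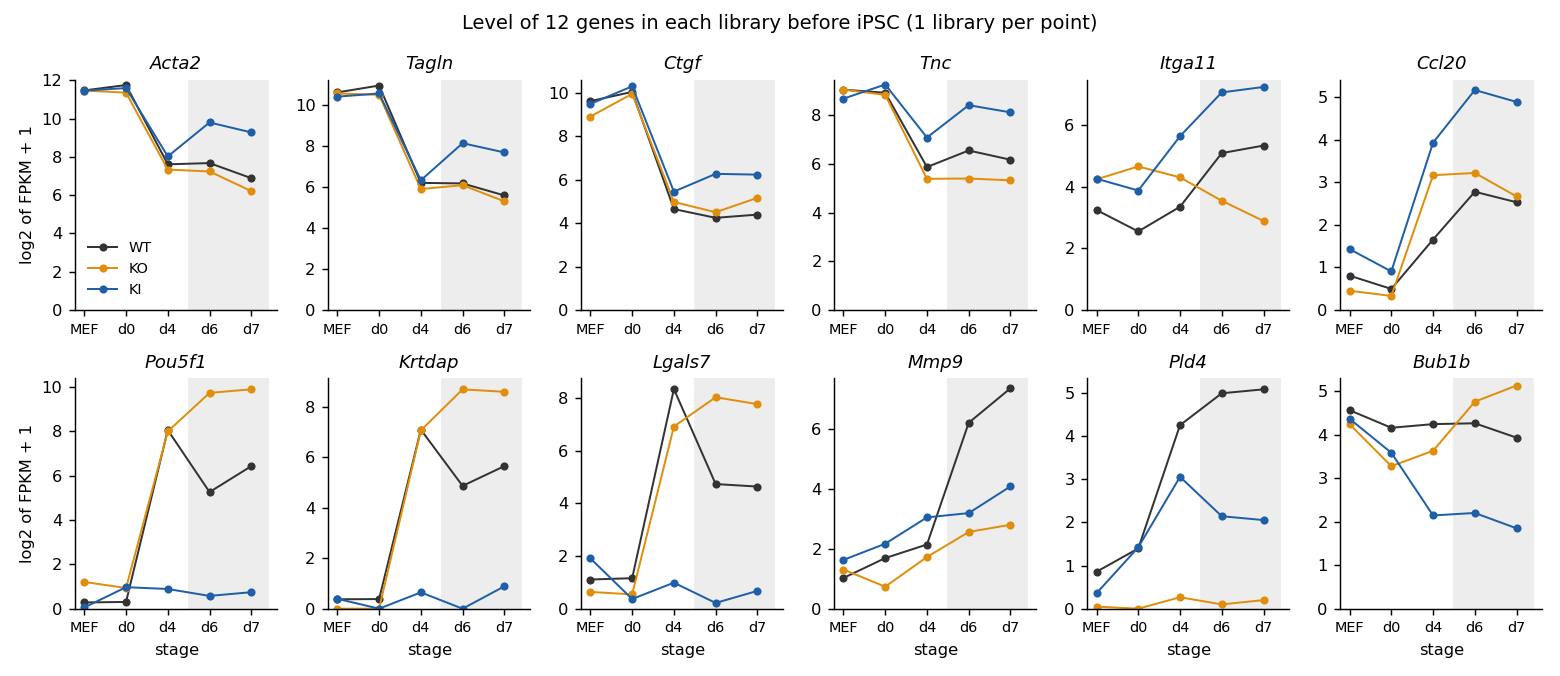
Level of 12 genes (log2 of FPKM + 1, y axis) in WT, KO and KI at MEF, day 0, day 4, day 6 and day 7 (x axis); each point is 1 library and grey marks days 6 and 7. In the upper row KI lies above WT on both late days, and in the lower row below it, with Pou5f1, Krtdap and Lgals7 below 1 on this scale in KI on days 4, 6 and 7.

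Most collagen genes were higher in KI on both days, 3 of them by at least 1. Of 22 tested collagen genes, 3 were at least 1 higher on both days, and the same 3 were called by limma. Over all genes the shares higher in KI were 1.13% by size and 0.598% by limma. On both days 18 were higher and 2 lower, and 2228 of all 10041 genes were higher. The list median was 0.62, against -0.149 over all genes. Col7a1, the anchoring fibril collagen, was at 5.005 and 3.69 in WT and at 23.7 and 17.2 in KI, and rose by 2.00 ± 0.08 (limma adjusted p = 0.0337). Col8a1 and Col8a2, the short-chain collagens of basement membranes, rose by 1.46 and 1.29 (adjusted p = 0.0406 for both). Col8a1 stood at 154 and 143 in WT and at 404 and 414 in KI. The fibril-forming chains Col1a1, Col1a2 and Col3a1 had differences of 0.24, 0.24 and 0.23, and none was called (adjusted p = 0.183, 0.145 and 0.225). Col28a1, a collagen outside the list, fell by 2.53. Of 10 small leucine-rich proteoglycans, which bind collagen fibrils, 5 were higher and 4 lower on both days, with a median of 0.16, and limma called 0, with 6 at an unadjusted p under 0.05.

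Adhesion and secreted proteins of the same compartment were among the largest increases. Tnc, the wound matrix glycoprotein tenascin C, was at 93.0 and 71.3 in WT and at 340 and 277 in KI, and rose by 1.90 ± 0.09 (limma adjusted p = 0.0337). Itga11, a collagen-binding integrin of fibroblasts, was at 33.2 and 39.5 in WT and at 133 and 150 in KI, and rose by 1.94 ± 0.08. Itga11 was already higher in KI in MEF (18.2 against 8.49) and at day 0 (13.7 against 4.87). Lrrc15, a surface protein of TGF-beta-exposed fibroblasts, rose by 1.70, and Pappa, a protease that cleaves IGF-binding proteins, by 1.69. C1qtnf3 and Parm1, named once short RNA genes are set aside, rose by 1.62 and 1.49. The chemokine Ccl20 was at 5.87 and 4.79 in WT and at 35.0 and 28.7 in KI and rose by 2.37 ± 0.07 (adjusted p = 0.027). Olr1, a receptor for oxidized lipoprotein, rose by 1.89, and Anxa8, an annexin, by 1.75. The non-coding AA465934 was at 3.36 and 2.48 in WT and 31.8 and 28.4 in KI, and at 3.75 against 26.2 in MEF, so that difference preceded reprogramming. AA465934 had passed the filter through KI only, which fixes its late direction.

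Broad fibroblast identity did not separate the genotypes to the same degree. Of 39 fibroblast and mesenchymal genes, 1 was at least 1 higher on both days, 1 at least 1 lower, and limma called 0, with 23 at an unadjusted p under 0.05 (3449 of all genes, or 34.3%). The median was 0.24. The higher gene was Thy1, a surface glycoprotein of fibroblasts whose silencing marks early reprogramming, with 105 and 95.6 in WT and 213 and 209 in KI (1.07 ± 0.09, limma adjusted p = 0.0511).

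Signalling genes of the TGF-beta family changed in both directions. Of 26 tested genes of the TGF-beta and BMP pathways, limma called 3 higher and 1 lower, against 0.598% and 1.05% of all genes. The list median was 0.08, against -0.149 over all genes. Of the 26, 2 had passed the filter through KI only, which fixes their direction on at least 1 day. Inhba, the activin A subunit, was at 8.76 and 7.46 in WT and at 22.0 and 21.2 in KI, and rose by 1.32. Fst, the secreted antagonist of activin, was at 50.6 and 44.6 in WT and at 133 and 127 in KI, and rose by 1.43. Ltbp2, a latent TGF-beta binding protein family member, rose by 1.41, while the BMP-family ligand Gdf10 fell by 1.52, from 47.8 and 50.3 in WT to 15.8 and 17.1 in KI. Of 20 Wnt pathway genes, limma called the secreted inhibitor Dkk3 (1.35) and the matricellular Wisp1 (1.24) higher and 0 lower. On both days 11 of the 20 were higher and 8 lower, with a median of 0.13, and 1 had passed the filter through KI only.

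Mitosis genes were lower in KI on both late days. All 34 tested were lower on both days, 23 of them by at least 1 on both days, and the median was -1.25, against -0.149 over all genes. Of the 34, 10 had passed the filter through WT only and so had to be lower on the day they passed. Bub1b and Ect2, given next, were among those. limma called 9 lower and 0 higher. Over all genes, 5475 of 10041 were lower on both days, 3.07% by at least 1 on both days, and limma called 1.05% lower. Bub1b, a spindle checkpoint kinase, was at 18.2 and 14.3 in WT and at 3.60 and 2.60 in KI, and fell by 2.07 ± 0.09 (log2, SE; adjusted p = 0.0337). Mad2l1, its checkpoint partner, was at 50.1 and 36.9 in WT and at 12.5 and 10.1 in KI, and fell by 1.84 ± 0.08. Ect2, which drives cytokinesis, fell by 1.66 and the mitotic cyclin Ccnb2 by 1.58. Cdk1, the kinase the mitotic cyclins activate, was at 70.7 and 68.1 in WT and 30.2 and 22.3 in KI but missed the threshold (-1.38, adjusted p = 0.0532). The smallest difference of the list was that of Smc2, a condensin subunit, at -0.44.

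Genes of DNA replication shifted less. Of 29 tested, 28 were lower on both days, 5 of them by at least 1 on both days, limma called 2 lower, and the median was -0.85, with 8 of the 29 passing the filter through WT only. Of all 10041 genes, 5475 were lower on both days, 3.07% by at least 1, and limma called 1.05% lower. Mcm6, a subunit of the replicative helicase, was at 21.4 and 19.2 in WT and at 8.57 and 6.28 in KI, and fell by 1.35 ± 0.10 (adjusted p = 0.0451). Uhrf1, which brings DNA methyltransferase to replicated DNA, was at 14.5 and 13.4 in WT and at 5.30 and 4.66 in KI, and fell by 1.32. Ccne1, the cyclin of entry into S phase, was at 19.6 and 16.4 in WT and at 19.8 and 14.98 in KI. In MEF the mitosis list had a median difference of 0.008 and the replication list of -0.045, and at day 4 the medians were -1.70 and -1.78. Of 28 cell cycle inhibitors and p53 response genes, limma called 1, the CDK inhibitor Cdkn1c, which fell by 1.14 from 101 and 104 in WT to 45.1 and 47.1 in KI. The list's median was 0.24.

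**Figure D3:**
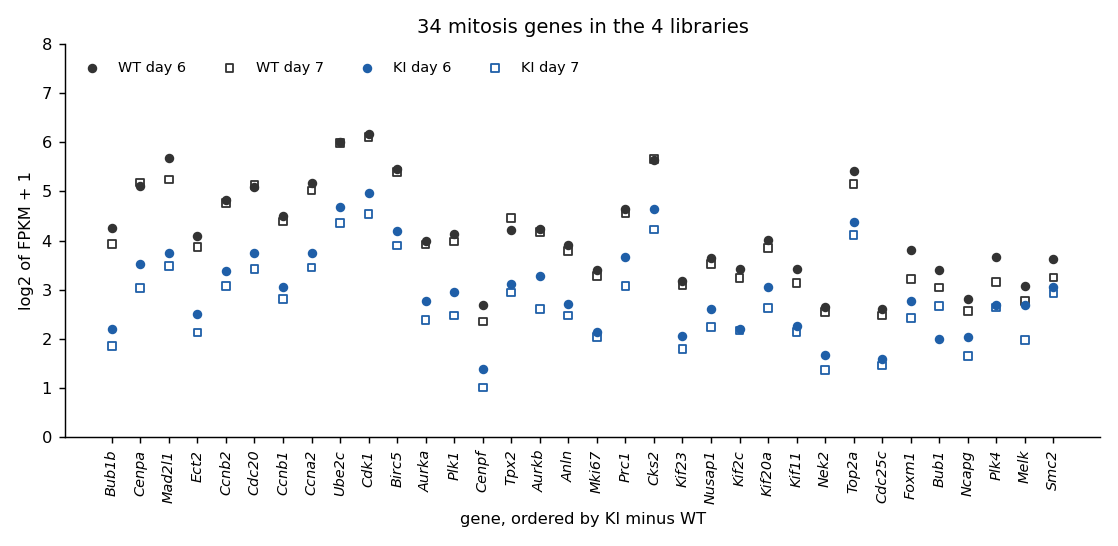
Level of 34 mitosis genes (log2 of FPKM + 1, y axis) in WT (black) and KI (blue) at day 6 (filled circles) and day 7 (open squares), ordered by the mean difference (x axis). Every KI point lies below the WT point of the same day, from Bub1b with a difference of -2.07 to Smc2 with -0.44.

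No oxidative phosphorylation or ribosomal protein gene was called by limma. All 26 tested oxidative phosphorylation subunits and 31 of 32 cytosolic ribosomal protein genes were lower on both days, with medians of -0.39 and -0.37 against -0.149 over all genes, and 17 and 21 had an unadjusted p under 0.05. Upper-quartile scaling, which set the median of all genes to 0.021, left medians of -0.21 and -0.18. Of 24 ribosome biogenesis and MYC-responsive genes limma called 1, the nucleolar methyltransferase Fbl, which fell by 1.01 from 15.4 and 15.6 to 7.42 and 7.03. Of 21 nucleotide and one-carbon synthesis genes it called Psat1, an enzyme of serine synthesis, which fell by 1.04 from 33.1 and 33.7 to 15.9 and 15.6.

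Of the 45 protein-coding genes at least 2 lower on both days, 4 were in the keratinocyte list and 1 in the epithelial list. Of 8 tested keratinocyte genes, 5 were at least 1 lower on both days and the median was -2.34, and of 10 tested epithelial genes 5 were lower by that size with a median of -1.64. Of these, 6 of the 8 and 7 of the 10 had passed the filter through WT only, which fixes their direction on at least 1 day, so the counts and medians describe the genes and support nothing. limma called 1 of the former and 0 of the latter, of which 2 had an unadjusted p under 0.05. Krtdap, a secreted protein of differentiating keratinocytes, was at 28.2 and 49.2 in WT and at 0 and 0.847 in KI, and fell by 4.82 ± 0.12 (adjusted p = 0.0183), with 413 and 385 in KO. Lgals7, an epidermal galectin, was at 25.6 and 23.9 in WT and at 0.163 and 0.597 in KI, and fell by 4.24 ± 0.22. Krt8, the first keratin of simple epithelia, was at 10.9 and 28.3 in WT and at 0.0824 and 0.231 in KI (-4.02, adjusted p = 0.0534). Cdh1, or E-cadherin, was at 2.00 and 5.59 in WT and 0.0176 and 0.0396 in KI.

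Other large decreases included genes of skin and cornea and a neuronal gene. Ly6g6c, a member of the Ly6 family, fell by 4.90 from 23.7 and 63.7 in WT to 0.217 and 0.467 in KI, and Slurp1, a secreted Ly6 protein of skin, fell by 2.92. Aldh3a1, a corneal aldehyde dehydrogenase, fell by 3.61 from 13.1 and 18.5 to 0.213 and 0.525. Stmn2, a neuronal microtubule regulator, fell by 2.41 from 14.2 and 19.9 to 2.35 and 2.36. Ly6g6c, Slurp1, Aldh3a1 and Stmn2, and Krtdap and Lgals7 above, had passed the filter through WT only, which fixes their direction. For Krtdap, Lgals7, Ly6g6c, Slurp1 and Aldh3a1 the 1 added to the FPKM also limits the size. For Krtdap, Lgals7, Slurp1 and Aldh3a1 the WT library of day 4 was at 136, 323, 297 and 302, well over the later WT libraries. That library stood apart from the 4 compared here, with Xist at 48.0 and the Y-linked Ddx3y at 2.74.

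Most macrophage markers were lower in KI on both late days. Of 25 tested macrophage markers, 22 were lower on both days, 6 of them by at least 1 on both days. limma called 3 lower, against 1.05% of all genes, and the median was -0.84, against -0.149. Over all genes, 5475 of 10041 were lower on both days. Of the 25, 4 had passed the filter through WT only and 1 through KI only, which fixes their direction on at least 1 day. The summed FPKM of the 26 markers was 3918 and 4694 in WT, 2531 and 2444 in KI, and 93.17 and 138.7 in KO. None of the 26 markers was at 0 in any of the 4 libraries, so macrophage markers were detected in both genotypes. In bulk RNA, fewer cells of a type and less RNA per cell cannot be told apart. Lyz2, the macrophage lysozyme, was at 2218 and 2649 in WT and at 1612 and 1601 in KI (-0.59, adjusted p = 0.0741). C1qa, a complement subunit, was at 164 and 195 against 64.3 and 55.5 (-1.57, adjusted p = 0.0534), and Csf1r, the CSF1 receptor, at 41.3 and 51.1 against 24.6 and 29.9 (-0.74, adjusted p = 0.0544).

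The largest decreases of the macrophage list exceeded those of the defining markers. Pld4, an endolysosomal exonuclease, was at 30.8 and 32.9 in WT and at 3.41 and 3.15 in KI, and fell by 2.94 ± 0.09 (limma adjusted p = 0.027). Aif1, an actin-binding protein of macrophages, was at 20.5 and 27.6 in WT and at 3.76 and 3.90 in KI, and fell by 2.36. Pld4 and Aif1 had passed the filter through WT only, which fixes their direction. Emr1, the F4/80 antigen, fell by 1.36. At the other end, Mpeg1, a pore-forming protein, was at 27.6 and 29.4 in WT and at 34.5 and 31.1 in KI. At day 4 the list median was the other way, at 0.70, but its members were split. Emr1, Csf1r and Lyz2 were higher in KI at day 4, by 1.33, 0.96 and 0.62. Pld4, Aif1 and C1qa were lower in KI at day 4 too, with differences of -1.20, -0.79 and -0.80. The WT library of day 4 stood apart, as given above.

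Mmp9, a gelatinase made by osteoclasts and macrophages among other cells, was lower in KI than in WT on the late days. It had an FPKM of 72.3 and 162 in WT on days 6 and 7 and of 8.10 and 15.9 in KI, and fell by 3.14 ± 0.11 (limma adjusted p = 0.0287). At day 4 it was at 3.41 in WT and 7.25 in KI, so its late levels were above those of day 4 in both genotypes. The late minus early difference was -3.68 (limma interaction, adjusted p = 0.0199). Mmp3, or stromelysin, fell by 1.39 from 199 and 310 to 74.0 and 120, while the 25 matrix proteases and inhibitors had a median of 0.26 and no member called higher. The share of macrophage RNA, lower in KI as given above, in the Mmp9 difference was not tested.

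Interferon response and complement genes were mostly lower in KI on the late days. Of 19 tested interferon response genes, 18 were lower on both days, 5 by at least 1 on both days, limma called Isg15 lower, and the median was -0.65, with 7 of the 19 passing the filter through WT only. Of all 10041 genes, 5475 were lower on both days, 3.07% by at least 1, limma called 1.05% lower, and the median was -0.149. Isg15, a ubiquitin-like protein, was at 20.8 and 25.1 in WT and at 8.37 and 10.8 in KI and fell by 1.19. At day 4 the list's median was 0.71. Of 16 complement genes, 13 were lower on both days with a median of -0.87, 1 of the 16 passing the filter through WT only. The protease C2 fell by 1.23, while Cd59a, which blocks the membrane attack complex, rose by 1.31 from 9.53 and 9.48 to 24.9 and 25.0. Cytokine and inflammatory genes had no common direction: of 22 tested, 10 were higher and 12 lower on both days, and the median of -0.114 became 0.005 with quantile normalization and 0.066 with upper-quartile scaling. limma called 2 of them lower, both acute-phase genes. The acute-phase protein Saa3 was at 6286 and 10401 in WT and at 3805 and 6341 in KI, and fell by 0.72, and haptoglobin (Hp) fell by 1.504. Ifi27l2a, an interferon-inducible gene, fell by 2.52, and the chemokine Ccl9 by 1.54. Among 18 chemokine genes limma called 1 higher and 1 lower, and their median of -0.02 became 0.08 with quantile normalization and 0.16 with upper-quartile scaling.

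**Figure D4:**
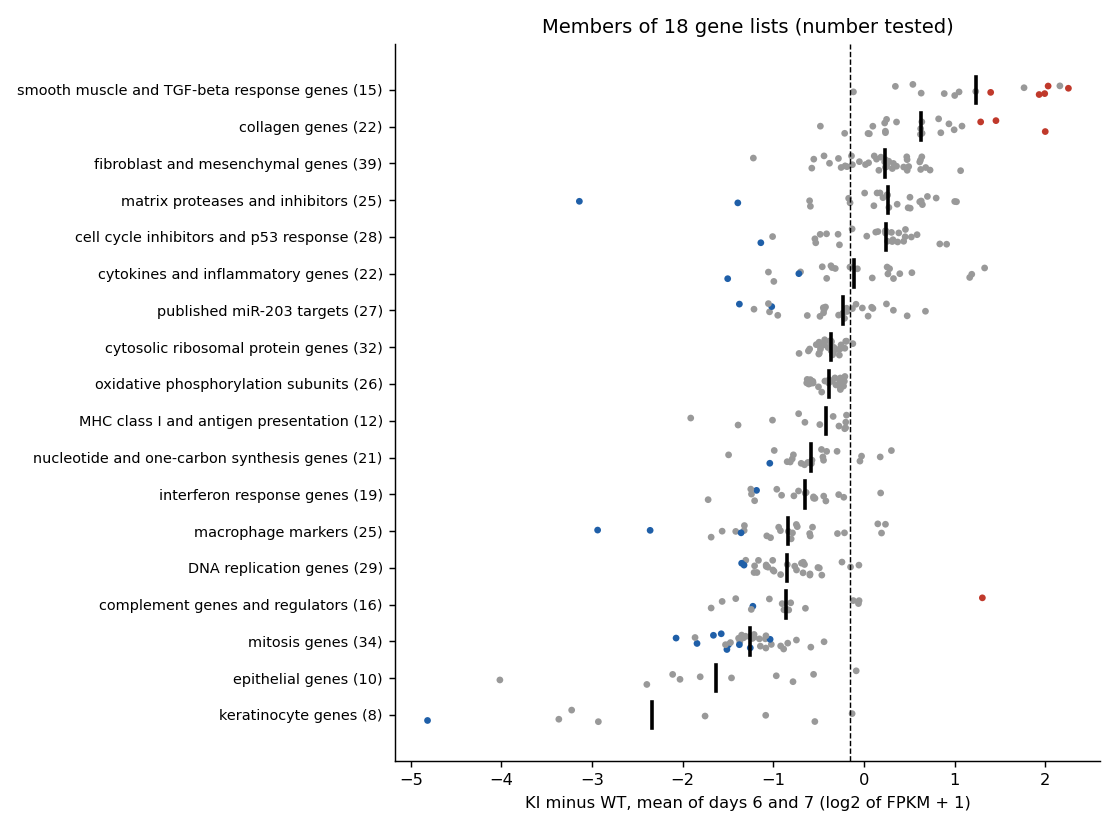
KI minus WT (mean of days 6 and 7, log2 of FPKM + 1, x axis) for tested members of 18 gene lists (rows, number tested in brackets). Each point is a gene, red or blue where limma called it higher or lower in KI, black bars are list medians and the dashed line is the median of all 10041 genes at -0.149; the smooth muscle list has the highest median at 1.23 and the keratinocyte list the lowest at -2.34.

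The earlier stages, which did not enter the choice of genes, were read for the same genes. Of the 113 higher genes, 63 were at least 1 higher in KI at day 4 as well (7.27% of all genes were), 26 in MEF (1.74%) and 31 at day 0 (1.73%). Of the 308 lower genes, 165 were at least 1 lower at day 4 (16.5%), 32 in MEF (1.76%) and 36 at day 0 (1.57%). Both early stages showed a difference of that size for 21 of the 113 and 18 of the 308 (0.488% and 0.478% of all genes). The median of the 260 protein-coding lower genes was -0.06 in MEF, -0.19 at day 0 and -1.24 at day 4, and that of the 72 higher genes 0.03, 0.23 and 1.21. The WT libraries of MEF and day 4 were set apart by Xist (46.9 and 48.0, and at most 3.23 in the 4 late libraries), and no second WT library exists for those stages.

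**Figure D5:**
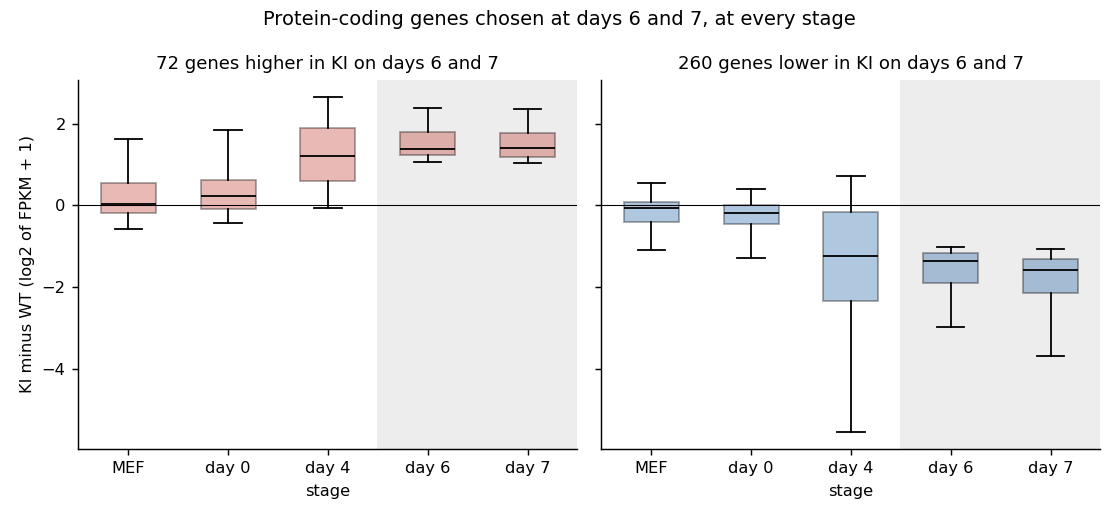
KI minus WT (log2 of FPKM + 1, y axis) by stage (x axis) for the 72 protein-coding genes chosen as at least 1 higher (left) and the 260 chosen as at least 1 lower (right) on days 6 and 7, which are grey because they made the choice. Boxes span the quartiles with the median, and whiskers reach the 5th and 95th percentiles; medians are near 0 in MEF and at 1.21 and -1.24 by day 4.

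A few genes differed at every stage. Tpm3-rs7, a tropomyosin-like sequence, was at 37.0 in WT and 0.280 in KI in MEF, and at 17.8 and 20.9 against 0.0794 and 0.0535 on the late days (-4.25 ± 0.25, limma adjusted p = 0.0403). Its reads can be shared with Tpm3, so its level is uncertain. Ucp2, a mitochondrial carrier, differed by -3.87 in MEF, -2.62 at day 0 and -2.10 and -2.28 on days 6 and 7. Pdpn, a mucin-type membrane protein, differed by -1.58 and -1.5 early and by -1.30 and -1.07 late. Gatm, the first enzyme of creatine synthesis, was lower in KI in MEF (2.70 against 6.49) and fell by 3.12 late. Tpm3-rs7 and Gatm had passed the filter through WT only, which fixes their late direction. Ucp2 and Pdpn were singled out after their values were seen.

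Short RNA genes had the largest fitted differences and the least stable levels. DQ267102, Snord58b, Snord42a, Snord45c and AF357399 were listed at 0 in both KI libraries. Their WT levels ran from 23.8 for AF357399 on day 7 to 534 for DQ267102 on day 6. ST7-AS1_2 was listed at 0 in both WT libraries and at 78.8 and 31.8 in KI, and Snora65 was at or near 0 in WT and at 39.7 and 25.6 in KI. At day 4 DQ267102 was listed at 0 in WT and at 806 in KI. The fitted differences of genes listed at 0 in a genotype are set by the 1 added to the FPKM and are no measure of size.

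Matches to the miR-203-3p seed were counted in the genes that were higher or lower in KI, with no test. CATTTCA was found in the longest annotated 3′ UTR of 1539 of 8994 genes searched (17.1%), on the sense strand, and every 8-base match CATTTCAA counts among them. The median difference was -0.141 with a match and -0.153 without. A match was present in 31 of 258 genes at least 1 lower on both days (12%) and in 17 of 71 genes at least 1 higher (23.9%). These groups also differed in UTR length, with medians of 684 and 1660 bases against 1172 over all genes searched. Within the shortest tertile of UTR lengths the medians were -0.244 with a match (110 genes) and -0.224 without. Within the middle tertile they were -0.186 and -0.122, and within the longest tertile -0.116 and -0.093. In each tertile the median was lower with a match, unlike over all genes searched. The share of genes at least 1 lower on both days was 0.91% with a match and 4.54% without in the shortest tertile, 2.93% and 2.63% in the middle one and 1.8% and 1.39% in the longest. A match is a description of the sequence, not a site of binding.

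Genes described elsewhere as miR-203 targets varied in direction. Of 27 tested, 19 were lower and 6 higher on both days, and limma called 2 lower. Over all genes, 5475 of 10041 were lower on both days and limma called 1.05% lower. The list's median was -0.23, against -0.149 over all genes. It became -0.068 with quantile normalization and -0.065 with upper-quartile scaling, against 0.007 and 0.021 over all genes. Of the 27, 2 had passed the filter through WT only. Birc5, the survivin gene, fell by 1.38 from 42.7 and 41.1 in WT to 17.3 and 13.9 in KI, but its UTR held no match, and it is also a mitosis gene. Rapgef1, an exchange factor with the match shown above, was at 18.7 and 17.8 in WT and at 8.38 and 8.62 in KI, and fell by 1.02 ± 0.08 (adjusted p = 0.0466). Src and Skp2, a tyrosine kinase and an F-box protein, had differences of -1.21 and -1.04 (adjusted p = 0.0722 and 0.0902). Prkca and Sparc, which carry matches too, were higher in KI by 0.68 and 0.32 (adjusted p = 0.0717 and 0.0812). The 18 genes with a match had a median of -0.353 and those without of -0.128. Dnmt3a, a de novo DNA methyltransferase, was at 12.8 and 14.4 in WT and at 12.1 and 9.97 in KI (-0.28, adjusted p = 0.252). Dnmt3b was at 0.624 and 1.27 against 0.260 and 0.247, under the filter.

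Asb4, Ppap2b, Gys1 and Tmpo were the lower genes outside the target list shown above, and they, Src and Skp2 hold the 8-base match. Those 4 were picked among lower genes with that match, and no higher gene outside the target list is shown. The 8-base match was present in 10 of 258 genes at least 1 lower on both days (3.9%). It was in 7 of 71 genes at least 1 higher (9.9%) and in 5.0% of all genes searched. Asb4, an imprinted ubiquitin ligase subunit, was at 14.5 and 15.8 in WT and at 1.18 and 1.92 in KI, and fell by 2.68 ± 0.16 (limma adjusted p = 0.0403). Ppap2b, a lipid phosphate phosphatase, fell by 1.62 from 82.5 and 93.0 to 25.3 and 30.5. Gys1, glycogen synthase, and Tmpo, a nuclear lamina protein, fell by 1.32 and 1.31. Asb4 had passed the filter through WT only, which fixes its direction. In MEF and at day 0 Asb4 was at 1.29 or less in both genotypes.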

How the data were processed

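FPKM values (fragments scaled by gene length and by the number mapped) for 17 libraries were computed by the authors and deposited as a table of that name, with 1 value per gene and library. The submitters' processing notes name Cufflinks 2.2.1, TopHat2 2.0.10, SAMtools 0.1.16, Bowtie 1.0.0 and FastQC, with GRCm38 and mm10 as builds, and the libraries kept strand, per the labels. Neither the annotation version nor read depth is stated, and no counting interval was computed. Lines of repeated gene identifiers (41 lines of 19 identifiers) were summed. Positions and UTRs came from GENCODE M21 (37428 identifiers matched) and the microRNA from RefSeq.

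Genes with FPKM of at least 5 in 1 or more of the 4 libraries were analysed as log2 of FPKM + 1. limma 3.58.1 in R 4.3.3 (variance trend, 2-sided, terms for day and genotype, Benjamini-Hochberg adjustment over 10041 genes, threshold 0.05) gave differences, standard errors and adjusted p-values. The days pair the libraries by design. A second fit compared days 6 and 7 with MEF and day 0 over 8 libraries. Code was tested on simulated data. Members, the 48 gene lists and tests were chosen with earlier results of these data known. Named genes are the 15 largest differences each way among genes called by limma, at least 1 on both days and with FPKM of at least 5 in the higher genotype, up to 4 called members per list, and the reprogramming factors, Mir203, Lyz2, C1qa, Csf1r, Col1a1, Vim, Thy1, Dnmt3a and Dnmt3b whatever their values. Predicted genes, pseudogenes and microRNAs were counted, not named. A result that this rule selects is not reported here. The genes ranking next once short RNA genes are set aside, and members given without a call, were added after their values were seen.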

Additional observations from a re-analysis of the deposited data

Results flagged for a closer look

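In 5 named genes the difference between KI and WT on days 6 and 7 departed from that in MEF and at day 0 by a test of the change itself (limma interaction over 8 libraries). The late minus early difference was 2.339 for Acta2 (adjusted p = 0.0487) and 2.329 for Tagln (adjusted p = 0.0381), both higher in KI in 2 of 2 late pairs of libraries. It was -3.68 for Mmp9 (adjusted p = 0.0199), lower in KI in 2 of 2 late pairs and higher in both early pairs. It was -8.246 for DQ267102 (adjusted p = 0.0383) and -8.341 for Snord42a (adjusted p = 0.00777), 2 short RNA genes listed at 0 in both late KI libraries, so these values and p-values are set by the 1 added to the FPKM and carry no size. Without 1 stage the adjusted p ran from 0.124 to 0.208 for Acta2, 0.123 to 0.156 for Tagln, 0.0701 to 0.103 for Mmp9 and 0.0826 to 0.142 for DQ267102, so all 4 calls were lost without any 1 stage. With quantile normalization that of Acta2 was 0.078.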

How the results depend on the processing

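Single libraries, 2 days and 1 residual degree of freedom leave the limma calls unstable, and the sizes in single libraries are the firmer description. Depth is unknown, so counting error near the filter could not be set aside. The limma count of 165 became 80 with FPKM 5 in each genotype, 775 with KO libraries added, 10 with day 4 added, 32 with a filter at FPKM 1, 3 with no filter, 19 with no variance trend, 708 and 18 with pseudocounts of 0.1 and 5, and 479 and 458 with quantile and upper-quartile scaling. With day 4 in place of day 6 or of day 7 limma called 0, with 1025 and 611 genes at an unadjusted p under 0.05. With no replicate block for day it was 998, 259 higher and 739 lower. Leaving out 1 library each, with KO added, gave 77 to 88, against 775 in that fit with all libraries, and 16 or 17 of them were among the 165. The balance turned with the library left out, from 67 higher and 18 lower without KI day 6 to 17 higher and 71 lower without WT day 6. Of 72 named genes called by limma, 66 or 67 lost the call in each of these fits, 67 with a pseudocount of 5 or no variance trend, 71 with no filter, 58 with a filter at FPKM 1, 69 or 70 with day 4 added or in place of another day, 10 with FPKM 5 in each genotype, 9 with KO libraries added, 3 with no replicate block, 1 with upper-quartile scaling and 0 with a pseudocount of 0.1 or quantile normalization. Protein-coding genes alone, an alternative added after seeing the data, gave 124. The late against early count of 20 ran from 11 to 126 without 1 stage, and 5 to 7 of the 20 were called there. The size count of 421 was 200 with a pseudocount of 5 (69 higher, 131 lower), 796 on day 6 alone, 927 on day 7 alone and 187 with FPKM 5 in each genotype. Genes with a seed match had a median 0.012 above the others, and with the 8-base match the difference was -0.034. Of 1353 comparisons of 81 named genes with alternative fits, 1338 kept the direction. The 15 others were Actg2 (-0.010 and -0.245 with day 4 in place of day 6 and of day 7), DQ267102 (0.824 and 0.296), Csf1r (0.106 and 0.122), Dnmt3a (0.136 and 0.347, and 0.067 with day 4 added), Emr1 (0.023) and Lyz2 (0.077) with day 4 in place of day 7, Col1a1 (-0.089 without KI day 7, up to 0.562 without another library), and Vim (from -0.129 to 0.026 without 1 library, 0.070 with quantile and 0.133 with upper-quartile scaling). For these the cause was not tested.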

Other observations

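Genes outside the main groups also differed. Peg10, an imprinted retrotransposon-derived gene, was at 33.9 and 33.3 in WT and at 6.85 and 7.84 in KI on days 6 and 7, and fell by 2.05 ± 0.09 (limma adjusted p = 0.0337). Of 22 imprinted genes limma called 2 lower and 0 higher, against 1.05% and 0.598% of all genes. Their median of -0.13 became 0.05 with upper-quartile scaling. Lgmn, a lysosomal protease, fell by 1.47 from 167 and 183 to 61.0 and 64.1, the only call among 23 lysosome genes. Cd36, a fatty acid transporter, rose by 1.45 from 9.02 and 8.70 to 25.4 and 26.5, Sod3, the extracellular superoxide dismutase, rose by 1.18, and Ncam1, an adhesion molecule, rose by 1.28. Fxyd1, a regulator of the sodium pump, fell by 2.85, and had passed the filter through WT only, which fixes its direction. Col28a1, a collagen outside the list used above, fell by 2.53 from 30.05 and 38.2 to 4.63 and 5.49.

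Arg1, the arginase of alternatively activated macrophages, was higher in KI, unlike most macrophage markers. Arg1 had passed the filter through KI only, which fixes its direction, and its source in the cultures was not tested. Its FPKM was 0.256 and 1.07 in WT and 7.83 and 13.0 in KI, a difference of 2.78 (limma adjusted p = 0.0534), and it was singled out after its values were seen. Spp1, or osteopontin, was at 270 and 305 in WT and 747 and 689 in KI, a difference of 1.32 (adjusted p = 0.0511).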
